A study of Caenorhabditis elegans with 15 samples.

Results

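Loss of MET-2 was examined under heat. The comparison sets early embryos of the met-2(n4256) deletion strain (met-2Δ) after 1 h at 37 °C against early embryos of the wild-type strain N2 (Bristol; WT) after the same 1 h at 37 °C. It uses 6 of the 15 libraries of the series, 3 per genotype, chosen by their sample labels, and all genes of the count table. The labels describe the 3 libraries of a group as independent biological replicates of embryos that had not yet reached the bean stage. The heat was applied in both groups, so no unheated WT embryos enter, and each genotype is a single strain, so that genotype and strain background cannot be told apart. A further pair of groups, met-2Δ and the catalytically deficient met-2(gw1660) mutant (met-2-CD), both kept at 20 °C, is given beside some results. This pair shares no library with the heat comparison. It does share the met-2Δ strain, so differences due to the background of that strain would recur in both comparisons.

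MET-2 is the worm relative of mammalian SETDB1 and methylates histone H3 on lysine 9 (H3K9me), a mark of silenced heterochromatin. In worm embryos it deposits the lower methylation states, and SET-25 can add the final one. H3K9me covers the repeat-rich outer parts of the worm autosomes, where many genes of large, recently expanded families lie. Heat activates the transcription factor HSF-1, which drives chaperone genes from a low basal level to a very high one within minutes.

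Depth differed between the genotypes. The met-2Δ libraries a, b and c held 18.47, 21.36 and 16.15 M counts, against 27.13, 26.67 and 24.38 M in WT libraries a, b and c. A floor of 3 counts corresponds to 0.141 to 0.198 CPM (depth-corrected counts, scaled so that all libraries share 1 total) in met-2Δ and to 0.107 to 0.118 CPM in WT. Every met-2Δ library was shallower than every WT library, so depth and genotype cannot be told apart in the deposited counts; thinning to the smallest library is among the alternatives tried. Replicate libraries correlated with Pearson's r of 0.9968 to 0.9978 on log2(CPM + 1) values, taken here from plain library totals. The biological coefficient of variation was 7.8%.

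The targeted gene was examined first. met-2 (WBGene00019883, chromosome III) had 65.0, 66.0 and 64.7 CPM in the met-2Δ libraries, against 281, 286 and 273 CPM in the WT libraries. The groups lay far apart, and RNA from the locus was still counted in every met-2Δ library. The log2 fold change (log2FC, met-2Δ over WT) was −2.1 ± 0.056 (SE), with an edgeR false discovery rate (FDR) of 2.37e-10.

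Of 14791 genes tested, 312 were higher in met-2Δ and 990 were lower at an FDR below 0.01 with a fold change above 2. These are 2.11% and 6.69% of the genes tested, 8.8% in either direction. At the FDR alone, 2359 genes (15.9%) were higher and 2729 (18.5%) lower. The libraries of the 2 genotypes did not overlap for any of the 312 higher genes or for 985 of the 990 lower genes, whereas they also did not overlap for 8851 of all genes tested. Single libraries moved the lower count: it was 583 without WT library a and 638 without met-2Δ library c. WT library b lay nearest to met-2Δ for 691 of the 990 lower genes (69.8%), and without it the lower count was 1310.

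**Figure D1:**
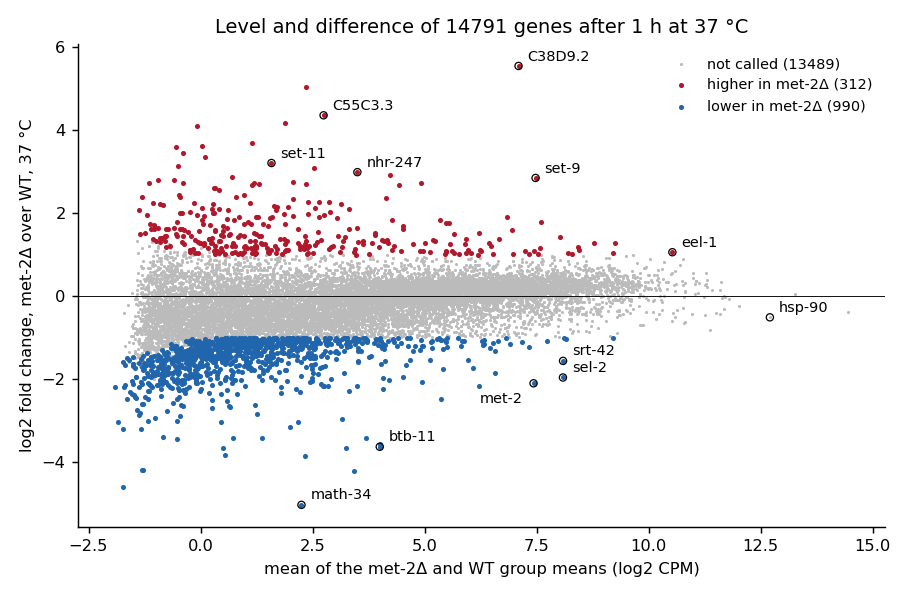
Each point is a gene, with its mean level on the x axis (log2 CPM) and its log2FC of met-2Δ over WT at 37 °C on the y axis. The 312 higher genes (red) and the 990 lower genes (blue) both lie mostly at low levels, and C38D9.2 stands far above all others of its level.

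The lower genes were weakly expressed. Their median level was 0.907 CPM in met-2Δ and 2.4 CPM in WT, and 85.8% of them in met-2Δ and 65.9% in WT lay under 4 CPM. For 24 of them no met-2Δ library had more than 3 counts. The higher genes had a median of 3.85 CPM in met-2Δ and 1.3 CPM in WT, and all genes tested had a median of 11.2 CPM in met-2Δ and 12.4 CPM in WT. Protein-coding genes made up 277 of the higher and 948 of the lower genes, beside 3699 that passed the FDR only and 9302 that did not pass. Annotated pseudogenes held 22 higher and 30 lower genes, beside 18 that passed the FDR only and 198 that did not pass. Both called counts are larger parts of the pseudogenes than the 2.11% and 6.69% of all genes, without matching for level. Of 5072 genes with annotated exons that averaged under 4 CPM over both genotypes, 733 were called lower and 182 higher.

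The largest rise belonged to C38D9.2 on chromosome V. It had 270, 260 and 273 CPM in met-2Δ, against 6.12, 5.52 and 5.48 CPM in WT, a log2FC of 5.55 ± 0.075 (FDR 9.39e-14). All met-2Δ libraries were thus alike, and all WT libraries were low. C55C3.3 on chromosome IV, one of the loci that the study followed by other assays, had 12.5, 11.7 and 14.2 CPM in met-2Δ, against 0.711, 0.472 and 0.671 CPM in WT (log2FC 4.36 ± 0.18, FDR 1.39e-08). The pseudogene WBGene00015359 on V rose by 5.05 ± 0.26 on the log2 scale, with 10.3, 10.5 and 9.02 CPM in met-2Δ and 0.107, 0.400 and 0.395 CPM in WT.

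Genes encoding SET domain proteins, the fold of most lysine methyltransferases, were among the 10 genes with the highest log2FC at 5 CPM or more. set-11 on II had 5.10, 5.59 and 5.53 CPM in met-2Δ, against 0.605, 0.545 and 0.592 CPM in WT, with a log2FC of 3.21 ± 0.20 (FDR 3.76e-07). set-9 on IV had 309, 237 and 393 CPM in met-2Δ, against 43.7, 34.5 and 51.8 CPM in WT (log2FC 2.85 ± 0.17, FDR 3.65e-07). SET-9 and SET-26 are near-identical readers of methylated H3 lysine 4. set-26, named after its values were seen, had 279, 217 and 410 CPM in met-2Δ, against 91.9, 72.7 and 99.3 CPM in WT (log2FC 1.78 ± 0.18, FDR 1.83e-05). Only uniquely aligned reads were counted, so how reads divide between these paralogs is uncertain.

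The remaining genes of that top 10 came from receptor families or carry no described role. nhr-247, a nuclear hormone receptor gene on V, had 25.3, 15.8 and 19.3 CPM in met-2Δ, against 2.17, 2.29 and 3.12 CPM in WT (log2FC 2.99 ± 0.19, FDR 5.51e-07). srh-118, a chemoreceptor gene on V, rose by 2.75 ± 0.23. F28F8.7 on V rose by 2.93 ± 0.11, with 30.6, 33.3 and 35.4 CPM in met-2Δ and 4.80, 4.32 and 3.87 CPM in WT. WBGene00022215 on X rose by 4.18 ± 0.28 and WBGene00007165 on V by 3.08 ± 0.17.

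The most abundant genes called higher encode large regulators. eel-1, a HECT-type ubiquitin ligase, had 2000, 1610 and 2380 CPM in met-2Δ, against 964, 889 and 1020 CPM in WT (log2FC 1.06 ± 0.11, FDR 2.07e-05). let-526, a SWI/SNF chromatin remodelling subunit, had 828, 756 and 997 CPM in met-2Δ, against 377, 328 and 353 CPM in WT (log2FC 1.28 ± 0.092). din-1, a corepressor of the receptor DAF-12, let-19, a Mediator kinase-module subunit, and spat-3, a RING finger protein that acts in histone H2A ubiquitination, rose by 1.04 ± 0.10, 1.27 ± 0.10 and 1.19 ± 0.15. In each of these genes met-2Δ library c was the highest and library b the lowest of the met-2Δ libraries, and none reached the WT range. Without met-2Δ library c the log2FC values of eel-1, din-1 and spat-3 were 0.92, 0.90 and 0.99, under the fold limit, and that of din-1 was 0.98 without WT library c.

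Transcript length moved with the difference among abundant genes. Above 20 CPM, the 53 genes called higher had a median summed exon length of 3809 bases, the 58 called lower one of 1407 bases and all 6191 genes one of 1773 bases (WBcel235 annotation). The median log2FC there was 0.26 for the 625 genes with exons over 4000 bases and 0.11 for the 3596 genes with exons up to 2000 bases. Between 4 and 20 CPM the order was the other way, −0.40 for the 87 longest and −0.12 for the 2553 shortest. Whether length has a part in the calls was not tested.

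**Figure D2:**
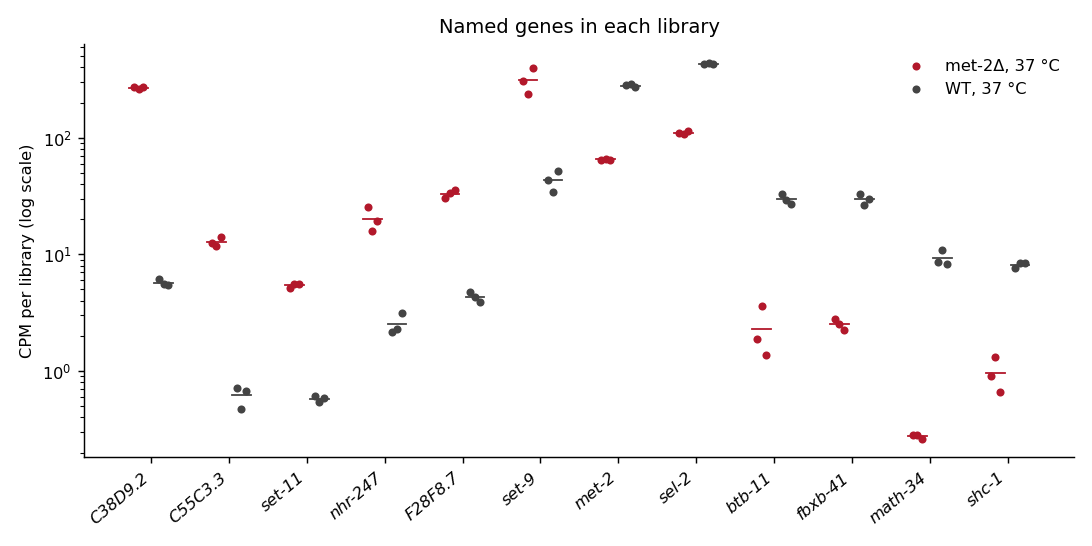
Each point is the CPM of a gene in 1 library on a log scale, with met-2Δ at 37 °C (red) left of WT at 37 °C (grey) and bars at the group means. The 6 genes on the left were higher and the 6 on the right lower in met-2Δ, and no gene shown has overlapping groups.

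Among the lower genes, 1 stretch of chromosome II stood apart. There, 16 consecutive tested genes from C32B5.15 to fbxb-40 were all lower in met-2Δ, with log2FC values of −5.03 to −2.83 and a median of −3.59. For 2 of them, fbxc-17 and fbxc-15, no met-2Δ library exceeded the floor, and with these at their bounds the median was −3.49. The call of fbxc-17 was lost without met-2Δ library a or c (FDR 0.0121 and 0.0113). The stretch holds F-box genes of the fbxb and fbxc families, whose proteins choose targets for ubiquitin ligases, together with a BTB and a MATH domain gene and the chemoreceptor gene str-148. math-34 had 0.284, 0.282 and 0.263 CPM in met-2Δ, against 8.54, 11 and 8.21 CPM in WT (log2FC −5.03 ± 0.25, FDR 6.46e-08). fbxb-41 had 2.78, 2.54 and 2.24 CPM in met-2Δ, against 33.2, 26.6 and 29.6 CPM in WT (log2FC −3.56 ± 0.13, FDR 4.03e-09). btb-11 had 1.87, 3.62 and 1.38 CPM in met-2Δ, against 32.8, 29.2 and 26.9 CPM in WT (log2FC −3.63 ± 0.21, FDR 2.47e-07). Low but nonzero counts thus remained in every met-2Δ library for these 3 genes.

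Under heat the stretch had sharp borders. On one side the adjacent tested gene fbxc-18 was higher, with 48.8, 53.7 and 48.9 CPM in met-2Δ and 35.6, 33.2 and 29 CPM in WT (log2FC 0.63 ± 0.083, FDR 8.98e-05). On the other side WBGene00019311 did not pass the test, with 29.4, 33.7 and 29.7 CPM in met-2Δ and 32.2, 34.4 and 27.9 CPM in WT (log2FC −0.02 ± 0.091, FDR 0.839). A little further out, btb-10 had a log2FC of 0.17 ± 0.085 (FDR 0.118), and K02E7.12 was higher with 1.93, 2.44 and 2.50 CPM in met-2Δ, against 0.711, 0.581 and 0.908 CPM in WT. The separate comparison at 20 °C holds the same met-2Δ strain. In it, all 16 genes were likewise lower in met-2Δ relative to met-2-CD, with a median log2FC of −4.17 and a range of −5.26 to −3.36. There the border gene WBGene00019311 was lower too, at −0.92 ± 0.067 (FDR 2.77e-04), under the fold limit.

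**Figure D3:**
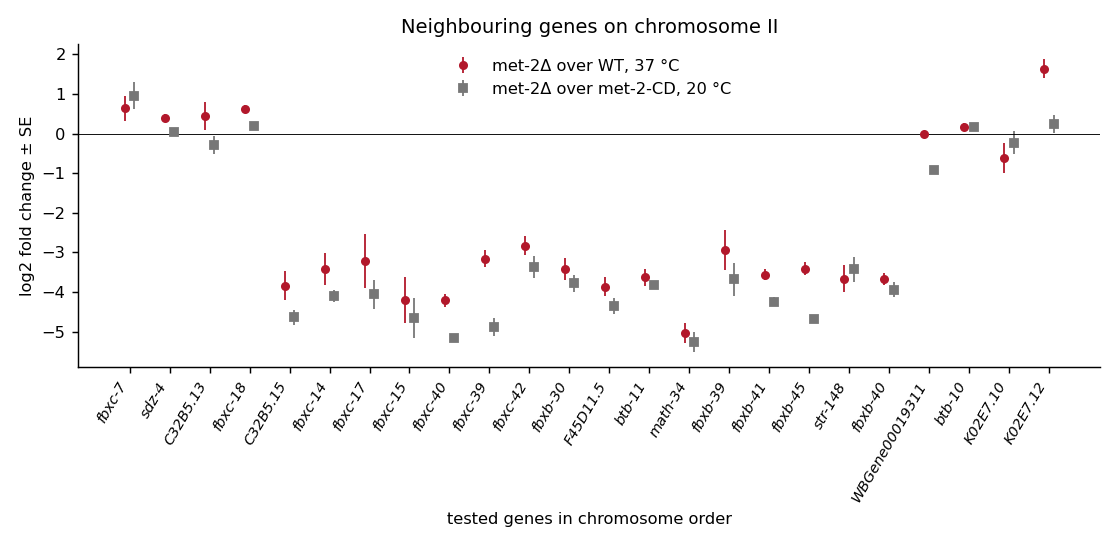
Log2FC ± SE of consecutive tested genes on chromosome II, for met-2Δ over WT at 37 °C (red circles) and for met-2Δ over met-2-CD at 20 °C (grey squares). The 16 genes from C32B5.15 to fbxb-40 lie between −5.26 and −2.83 in both comparisons, and the 4 tested genes on each side lie above −1. The lowest value of these flanking genes is that of WBGene00019311 at 20 °C, −0.92.

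Outside that stretch, the deepest falls at 5 CPM or more in WT were those of shc-1 and pqn-31. shc-1 on I, an adaptor protein of insulin-like signalling, had 0.907, 1.32 and 0.659 CPM in met-2Δ, against 7.61, 8.36 and 8.37 CPM in WT (log2FC −3.03 ± 0.20, FDR 8.56e-07). pqn-31 on V had 2.61, 1.79 and 1.65 CPM in met-2Δ, against 10.4 CPM in the lowest and 20.4 CPM in the highest WT library (log2FC −2.97 ± 0.26, FDR 6.01e-06). In both genes the highest met-2Δ library stayed below the lowest WT library.

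Of the most abundant lower genes, sel-2 had the tightest values. sel-2 on III, a BEACH domain protein involved in membrane traffic of LIN-12/Notch, had 110, 107 and 115 CPM in met-2Δ, against 428, 439 and 431 CPM in WT (log2FC −1.96 ± 0.057, FDR 4.19e-10). srt-42, a chemoreceptor gene on V, had 118, 169 and 128 CPM in met-2Δ, against 483, 245 and 492 CPM in WT (log2FC −1.56 ± 0.21, FDR 1.17e-04). WT library b was the lowest WT library for srt-42, still above all met-2Δ libraries. lea-1, a homologue of plant desiccation proteins, and cut-2, a cuticle component, fell by 1.04 ± 0.10 and 1.02 ± 0.12, and F41F3.3 fell by 1.02 ± 0.091. With 12 libraries in the model (all but those of WT at 20 °C), F41F3.3 and cut-2 no longer passed (FDR 0.0484 and 0.039). All 3 went under the fold limit without single libraries. The log2FC of lea-1 was −0.88 without WT library a. That of cut-2 was −0.90, −0.98 and −0.94 without met-2Δ library a, met-2Δ library b and WT library c, and that of F41F3.3 was −0.98, −0.95 and −0.96 without met-2Δ library b, WT library a and WT library c.

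Chaperone genes were abundant in both genotypes and lower in met-2Δ by a small margin. Of 36 tested chaperone, co-chaperone and HSF-1 pathway genes, 16 were lower and 1 higher at the FDR alone (beside 18.5% and 15.9% of all genes), and 1 was called lower with a fold above 2. Their median log2FC was −0.23, against −0.03 over all genes tested, and their summed level was 29800 to 33700 CPM in met-2Δ and 37300 to 42600 CPM in WT. Without WT library a, 6 of the 36 were lower.

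The inducible HSP70 genes were led by hsp-70, with 1720, 1220 and 1290 CPM in met-2Δ, against 2710, 1850 and 1970 CPM in WT (log2FC −0.63 ± 0.14, FDR 0.00323). Library a was the highest of each genotype, and without WT library a the log2FC of hsp-70 was −0.42 with an FDR of 0.0172. Its FDR was also 0.0151 without met-2Δ library b and 0.0144 without met-2Δ library c. F44E5.4 and F44E5.5, a divergent pair of HSP70 genes on II, fell by 0.44 ± 0.080 and 0.41 ± 0.086. Their FDR values were 7.98e-04 and 0.00187.

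Constitutive chaperones showed the same order of size. hsp-90, the HSP90 gene, had 6000, 5320 and 5240 CPM in met-2Δ, against 8230, 8050 and 7250 CPM in WT (log2FC −0.51 ± 0.073, FDR 1.62e-04). hsp-110 and hsp-1 fell by 0.41 ± 0.080 and 0.31 ± 0.070. Without WT library a their FDR values were 0.011 and 0.0297, and that of F44E5.5 was 0.0118. That of hsp-1 was 0.0131 without met-2Δ library a. The co-chaperone genes unc-23, of the BAG family, and aip-1, an arsenite-inducible zinc finger protein, fell by 0.98 ± 0.069 and 0.90 ± 0.081.

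Of 6 tested small heat shock genes, 3 were lower and 0 higher at the FDR alone (beside 18.5% and 15.9% of all genes). In this class 1 gene was called lower with a fold above 2, and the lowest log2FC was −1.77. The genes hsp-16.2 and hsp-16.41 did not pass the test. hsp-16.2 had 2620, 1760 and 1860 CPM in met-2Δ, against 3280, 2520 and 2720 CPM in WT (log2FC −0.45 ± 0.13, FDR 0.0133). hsp-16.41 had a log2FC of −0.42 ± 0.13 (FDR 0.0201). Both passed without met-2Δ library a, at −0.65 and −0.61 (FDR 5.70e-04 and 0.00117), and without WT library b, at −0.53 and −0.49 (FDR 0.00555 and 0.0089). The 4 duplicated copies of hsp-16.1 and hsp-16.48 had counts at or near 0 in all 6 libraries; only unique alignments were counted, and no value is given for them. hsf-1 itself averaged 135 ± 7.96 CPM in met-2Δ and 101 ± 4.16 CPM in WT (SD, n = 3 each), a rise of 0.41 ± 0.063 on the log2 scale (edgeR FDR 2.36e-04). The mitochondrial chaperone genes hsp-6 and hsp-60 had log2FC values of 0.07 and −0.06 and did not pass.

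Some genes that neighbour the heat shock loci had larger log2FC values than the heat shock genes themselves. These neighbours were examined after their values were seen, as the 4 tested genes on each side of 9 chaperone genes in the WBcel235 order. Of 56 distinct neighbours, 14 were called lower (25%) and 1 higher, beside the 6.69% and 2.11% of all genes. On chromosome V, which holds the hsp-16.2 and hsp-16.41 pair and hsp-90, 12.8% of all tested genes were lower. Leaving out 1 library gave 12 to 15 lower and 0 to 2 higher neighbours. The hsp-16.2 and hsp-16.41 pair on V had 5 lower genes of 8 neighbours, hsp-90 3 of 8, and the F44E5.4 and F44E5.5 pair 2 of 8. hsp-1 had 2 lower genes of 8, hsp-70 and hsp-110 1 each and dnj-13 0.

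Downstream of hsp-16.41 on the same strand lies srt-42, given above. Y46H3A.5, a few genes further and on the opposite strand, had 44.3, 42.2 and 38.2 CPM in met-2Δ, against 179, 88.2 and 182 CPM in WT (log2FC −1.85 ± 0.21, FDR 3.47e-05). Downstream of hsp-16.2, srt-41 averaged 9.51 ± 2.46 CPM in met-2Δ (SD, n = 3), against 44.9, 19.1 and 45.9 CPM in WT (log2FC −1.95 ± 0.29, FDR 1.90e-04). In both genes WT library b was the lowest WT library and still lay above met-2Δ. At 20 °C, scaled separately, met-2Δ averaged 1.42 CPM for Y46H3A.5 and 0.139 CPM for srt-41.

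Lower neighbours were also found beside hsp-90 and F44E5.5. Downstream of hsp-90, C47E8.11 had 7.60, 7.0 and 5.53 CPM in met-2Δ, against 30.1, 22.2 and 28 CPM in WT (log2FC −1.98 ± 0.14, FDR 1.20e-06). gasr-8, one gene further on the same strand, had 7.03, 7.28 and 7.77 CPM in met-2Δ, against 37.1, 20.6 and 31.2 CPM in WT (log2FC −2.01 ± 0.18, FDR 8.38e-06). Near F44E5.5, F44E5.2 had 15.5, 12.1 and 10.1 CPM in met-2Δ, against 68.4, 49.5 and 93.7 CPM in WT (log2FC −2.48 ± 0.21, FDR 4.48e-06). On the far side of that pair gpb-1, a G protein beta subunit, was higher, with 116, 88.6 and 167 CPM in met-2Δ and 60.1, 52.9 and 71.4 CPM in WT (log2FC 1.01 ± 0.18, FDR 6.22e-04). Its log2FC was 0.73 without met-2Δ library c and 0.91 without WT library b, under the fold limit, and its FDR was 0.0153 with 12 libraries in the model.

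**Figure D4:**
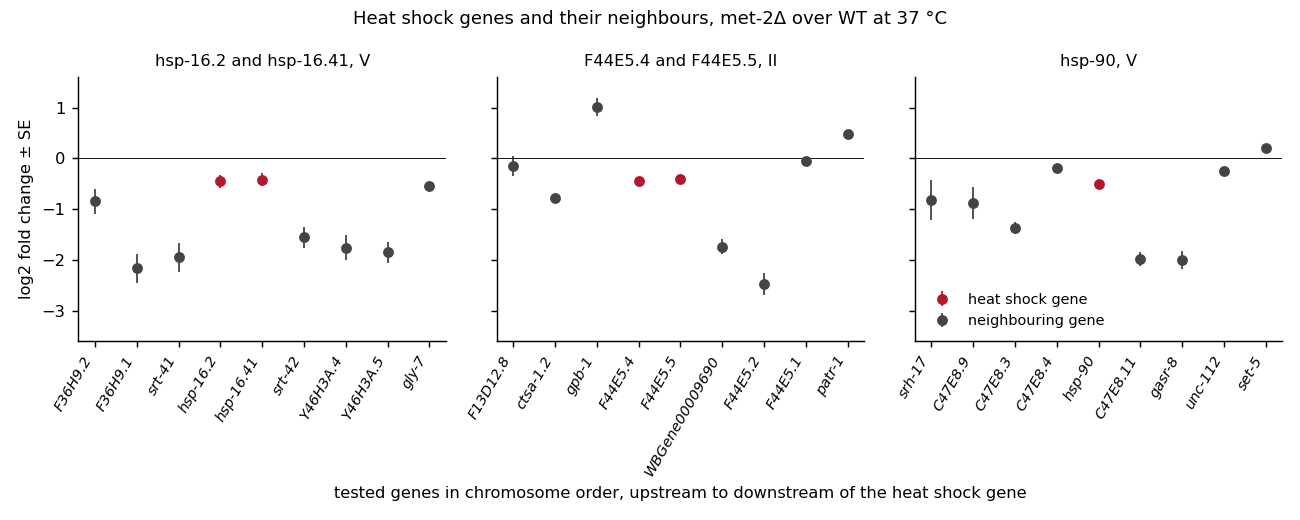
Log2FC ± SE of met-2Δ over WT at 37 °C for heat shock genes (red) and the tested genes beside them (grey), in chromosome order. The heat shock genes lie between −0.51 and −0.41, and neighbours such as F44E5.2, gasr-8 and srt-41 lie at −2.48, −2.01 and −1.95.

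Of 21 tested genes of the H3K9me pathway, 8 were higher and 1, met-2 itself, lower at the FDR alone (beside 15.9% and 18.5% of all genes). Their median log2FC was 0.20, against 0.13 over the 6191 genes above 20 CPM. set-25, the second H3K9 methyltransferase of embryos, had 118, 108 and 125 CPM in met-2Δ, against 81.5, 82.5 and 91.1 CPM in WT (log2FC 0.46 ± 0.070, FDR 2.54e-04). lin-13, a zinc finger partner of the HP1 protein HPL-2, had 1370, 1310 and 1400 CPM in met-2Δ, against 747, 760 and 692 CPM in WT (log2FC 0.89 ± 0.060, FDR 8.82e-07). Both genes kept their groups apart in all libraries.

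The nuclear RNAi genes, which guide silencing by small RNAs, held 4 of these 8. hrde-1, the germline nuclear Argonaute, had 605, 600 and 624 CPM in met-2Δ, against 339, 389 and 388 CPM in WT (log2FC 0.71 ± 0.064, FDR 7.65e-06). nrde-2, nrde-3 and nrde-4 rose by 0.48, 0.46 and 0.29. The MET-2 cofactor genes lin-65 and arle-14 did not pass, at 0.17 ± 0.059 (FDR 0.0276) and 0.12 ± 0.081 (FDR 0.248), although lin-65 passed without met-2Δ library b at 0.23 (FDR 0.00933).

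Histone acetylation genes had 8 of 14 higher and 0 lower at the FDR alone (beside 15.9% and 18.5% of all genes). Their median log2FC was 0.29, against −0.03 over all genes tested and 0.13 over the 6191 genes above 20 CPM. hda-4, a class II deacetylase, had 46.3, 36.4 and 58.5 CPM in met-2Δ, against 24.9, 20.3 and 21.8 CPM in WT (log2FC 1.07 ± 0.14, FDR 9.01e-05). Without met-2Δ library c its log2FC was 0.88, under the fold limit. cbp-1, the CBP/p300 acetyltransferase, and hda-1 rose by 0.45 ± 0.066 and 0.48 ± 0.076. The medians of both lists stayed positive under each scaling tried, at 0.09 and 0.18 with library totals.

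Of the other loci that the study assayed, none passed with a fold above 2. F10D11.6 had 71.4, 64.7 and 64.3 CPM in met-2Δ, against 163, 93.7 and 127 CPM in WT (log2FC −0.94 ± 0.15, FDR 2.99e-04). grl-16, nep-17 and glf-1 fell by 0.88, 0.67 and 0.51, and the calls of nep-17 and glf-1 were lost with 12 libraries in the model (FDR 0.0731 and 0.175). bcl-11, col-166 and unc-119 did not pass, but col-166 did without WT library b, at −0.72 (FDR 1.04e-04). These loci were chosen by the study, so they are not independent evidence.

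Markers of stage and cell type moved with the genotype. Of 20 transcripts loaded by the mother, 12 were higher in met-2Δ at the FDR alone and 0 lower (beside 15.9% and 18.5% of all genes). Their median was 0.32, against 0.13 over the 6191 genes above 20 CPM. Their summed level was 5700 to 6450 CPM in met-2Δ and 4320 to 5160 CPM in WT. mex-5, which sets up the anterior of the zygote, had 481, 392 and 557 CPM in met-2Δ, against 258, 263 and 328 CPM in WT (log2FC 0.75 ± 0.12, FDR 2.76e-04). With 12 libraries in the model, 1 of the 20 was higher. Early zygotic regulators had 2 of 19 higher, 0 lower and a median of −0.02, which was 0.01 with DESeq2 size factors.

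Muscle, neuronal and gut markers lay the other way. Muscle genes had 8 of 12 lower and a median of −0.69, with a summed level of 3240 to 4110 CPM in met-2Δ and 3810 to 5680 CPM in WT. Neuronal genes had 10 of 12 lower (median −0.58; 424 to 435 CPM in met-2Δ and 514 to 552 CPM in WT), and gut genes 7 of 10 (median −0.83; 466 to 500 CPM in met-2Δ and 693 to 868 CPM in WT). Epidermal genes had 2 of 11 lower and a median of −0.29. These counts are at the FDR alone, beside 18.5% of all genes. The muscle count was 5 without met-2Δ library b, WT library a or WT library c, and the gut count was 3 without met-2Δ library b or c and 4 without WT library a. With 12 libraries in the model 3 genes of each of the muscle, neuronal and gut lists were lower. myo-3, a muscle myosin heavy chain, had 775, 689 and 695 CPM in met-2Δ, against 1330, 998 and 1150 CPM in WT (log2FC −0.69 ± 0.092, FDR 9.71e-05), whereas the myosin gene unc-54 had a log2FC of 0.13 ± 0.23 (FDR 0.645).

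Adult yolk protein genes had low levels, with sums of 6.34 to 8.36 CPM in met-2Δ and 11 to 18.6 CPM in WT. Of the 4 tested, 3 were called lower (beside 6.69% of all genes). vit-2 had 0.284, 0.329 and 0.263 CPM in met-2Δ, against 2.24, 3.89 and 1.26 CPM in WT (log2FC −3.04 ± 0.47, FDR 2.72e-04). The part of these marker differences in the calls was not tested. In bulk embryos, fewer cells of a type and less RNA per cell cannot be told apart.

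The large receptor families held many of the lower genes. Chemoreceptor genes encode the G protein-coupled receptors of sensory neurons. Of 319 tested members, 75 were called lower (23.5%) and 12 higher (3.76%), beside 6.69% and 2.11% of all genes, with a median of −0.61. The other members of the 1293 did not pass the filter, which a gene could pass through either genotype alone. The tested members had medians of 0.672 CPM in met-2Δ and 0.994 CPM in WT. Of 5072 genes averaging under 4 CPM, 733 were called lower and 182 higher, with a median log2FC of −0.45. Leaving out 1 library gave 36 to 99 lower chemoreceptor genes, with 36 without met-2Δ library b, 42 without WT library c, 45 without WT library a and 47 without met-2Δ library c. sru-3 had 0.0567, 0 and 0.0659 CPM in met-2Δ, against 0.925, 0.654 and 0.750 CPM in WT, so every met-2Δ value lay under the 3-count floor. srh-233 went the other way, with 1.02, 1.27 and 1.51 CPM in met-2Δ, against 0, 0.0727 and 0.237 CPM in WT.

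Shares above the 6.69% of all genes were also found in other families, without matching for level. Of the 5072 genes with annotated exons that averaged under 4 CPM, 733 were called lower. The shares of the glucuronosyltransferase and C-type lectin genes, given below, lay close to that of those weakly expressed genes. Whether level accounts for the shares of these families was not tested. Astacin protease genes had 7 of 26 called lower (26.9%), insulin-like and neuropeptide genes 18 of 90 (20.0%), glutathione transferase genes 7 of 34 (20.6%) and glucuronosyltransferase genes 9 of 61 (14.8%). ins-13, an insulin-like peptide, had 3.69, 4.70 and 3.89 CPM in met-2Δ, against 22.2, 10.5 and 22.8 CPM in WT (log2FC −2.16 ± 0.26, FDR 5.43e-05). C-type lectin genes had 15 of 102 lower and 2 higher. Single libraries moved these counts. The astacin count was 3 without met-2Δ library a or WT library a and 4 without met-2Δ library c, and the insulin-like and neuropeptide count 10 without WT library a and 11 without met-2Δ library c. The glutathione transferase count was 4 without WT library a, and the lectin count 9 without met-2Δ library b. Among the lectin genes, clec-9 had 4.65, 2.07 and 5.73 CPM in met-2Δ, against 0.462, 0.254 and 0.197 CPM in WT (log2FC 3.70 ± 0.42, FDR 3.65e-05).

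The F-box family fbxa had more members called higher than lower. Of 112 tested, 14 were higher (12.5%) and 5 lower (4.46%), and its median of 0.10 was 0.00 with library totals. Without WT library b, 9 fbxa genes were lower. fbxa-43 on III had 1.47, 1.41 and 1.12 CPM in met-2Δ, against 0.142, 0.0727 and 0.395 CPM in WT (log2FC 2.73 ± 0.42, FDR 2.70e-04). The fbxb family had 3 of 100 higher and 7 lower, near the 2.11% and 6.69% of all genes, and 5 of the 7 lie in the stretch on chromosome II. At the FDR alone 33 fbxb genes were higher, beside 15.9% of all genes (19 without WT library c and 21 without met-2Δ library a). The fbxc family had 0 of 36 higher and 7 lower, with its 3 largest falls, fbxc-40, fbxc-15 and fbxc-14, all inside the stretch on chromosome II. The lower genes fbxc-17, fbxc-39 and fbxc-42 lie in that stretch too.

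**Figure D5:**
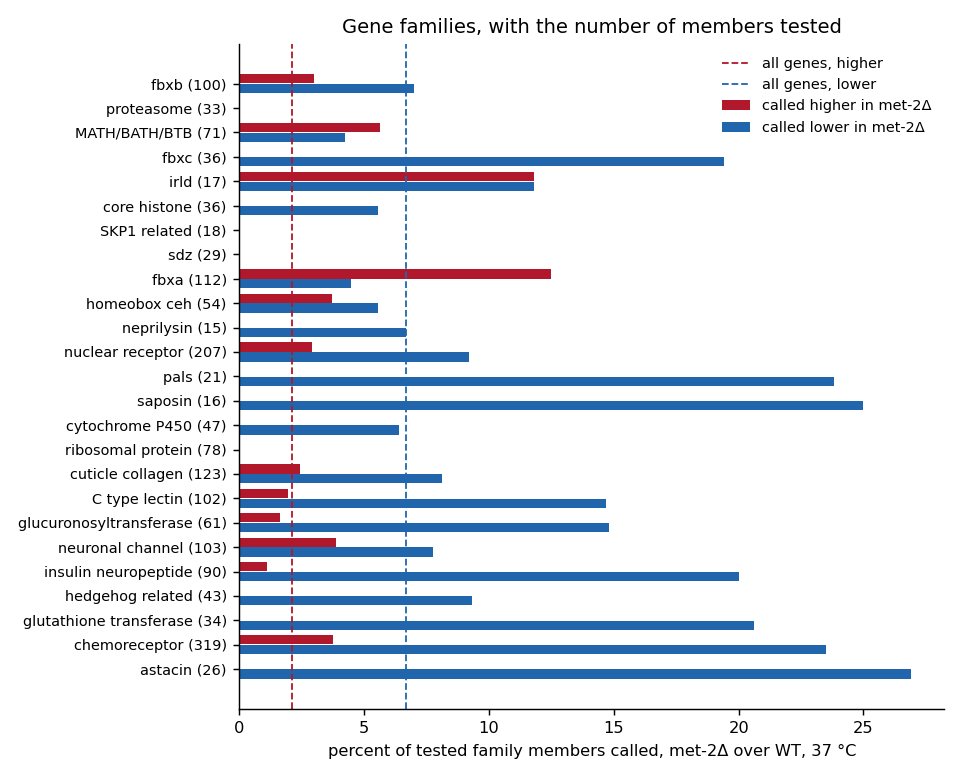
Percent of the tested members of each family called higher (red bars) and lower (blue bars) in met-2Δ relative to WT at 37 °C, ordered by median log2FC, with dashed lines at the 2.11% and 6.69% of all genes. Astacin, saposin, pals, chemoreceptor and glutathione transferase genes exceed 20% lower, and fbxa genes reach 12.5% higher.

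Ribosomal and proteasomal genes differed by less than 2-fold. For comparison, the 6191 genes above 20 CPM had a median log2FC of 0.13. Of 78 ribosomal protein genes, 67 were lower and 1 higher at the FDR alone (beside 18.5% and 15.9% of all genes), with a median of −0.37, and 0 passed the fold limit. Their sum was 21400 to 22100 CPM in met-2Δ and 27000 to 28200 CPM in WT. Of 33 proteasome genes 13 were higher and 0 lower at the same limit, with a median of 0.21; without WT library a 3 were higher, without met-2Δ library a or c 4, and without WT library b 5. Of 36 core histone genes, 15 were higher and 4 lower at the FDR alone, with a median of 0.14 (0.03 with library totals) and a sum of 18400 to 19800 CPM in met-2Δ and 14900 to 15900 CPM in WT. The higher count was 8 with library totals and 4 with 12 libraries in the model. The members past the fold limit were his-37 and his-41 on V, both lower, at −1.33 ± 0.11 and −1.09 ± 0.076. Histone genes have near-identical copies and only unique alignments were counted, so how reads divide between them is uncertain.

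Higher and lower genes lay in different parts of the chromosomes. On the autosomes, the terminal 30% at each end held 239 higher genes of 6453 tested (3.70%), against 34 of 6023 (0.565%) in the middle 40%. The lower genes had the opposite order, with 325 (5.04%) in the ends and 515 (8.55%) in the middle. Chromosome V held 379 lower genes of 2958 (12.8%), and its middle 239 of 1478, beside 3 higher genes there (0.203%). On the other autosomes 3.3% to 6.17% of the genes were lower, and on X 6.78%.

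Lower genes also formed runs. There were 15 runs of at least 5 consecutive tested genes called lower, 10 of them on V, and no run of higher genes. On V the longest spanned 12 genes, from bus-1 to C25E10.13, with log2FC values of −2.22 to −1.04, followed by runs of 9 from Y58A7A.3 to srab-3 and from fip-2 to pqn-31. The run of 12 had 5 genes called lower without WT library c or met-2Δ library c and 7 without met-2Δ library b, whereas all 9 genes from fip-2 to pqn-31 were called without any 1 of the 6 libraries. At 20 °C, 3 genes of the run of 12 were tested, 4 of the run from Y58A7A.3 and 5 of the run from fip-2. None of these was called lower in met-2Δ relative to met-2-CD, and 2 of the run from Y58A7A.3 were called higher.

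The run from fip-2 to pqn-31 encloses the 4 duplicated copies of hsp-16.1 and hsp-16.48 in the WBcel235 order. T27E4.1, the first tested gene on one side of them, had 30.1, 27.3 and 24.8 CPM in met-2Δ, against 141, 65.5 and 161 CPM in WT (log2FC −2.16 ± 0.25, FDR 3.87e-05). On the other side, T27E4.7 had 2.78, 2.68 and 3.10 CPM in met-2Δ, against 8.29, 8.25 and 10.1 CPM in WT (log2FC −1.64 ± 0.15). frpr-6, which encodes a receptor of the FMRFamide peptide family, had 7.09, 5.31 and 5.20 CPM in met-2Δ, against 29.7, 18.1 and 35 CPM in WT (log2FC −2.23 ± 0.22). The met-2Δ libraries of all 3 genes lay below the WT libraries, and WT library b was the lowest WT library for each of them.

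In the run from Y58A7A.3 to srab-3, unc-46, a gene needed to load GABA into synaptic vesicles, had 0.680, 1.41 and 0.922 CPM in met-2Δ, against 5.26, 2.83 and 4.34 CPM in WT (log2FC −2.01 ± 0.30). Y58A7A.4 had 2.55, 3.34 and 3.16 CPM in met-2Δ, against 9.03, 14.1 and 13 CPM in WT (log2FC −1.99 ± 0.19), and at 20 °C it averaged 0.507 CPM in met-2Δ and was at 0 in met-2-CD.

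The comparison at 20 °C, between met-2Δ and met-2-CD, had 402 higher genes (2.99% of 13428 tested) and 94 lower (0.70%). It holds the same met-2Δ strain as the heat comparison. Of the 312 genes higher under heat, 263 were tested in both, 49 of them were higher in both (18.6%) and 0 were lower at 20 °C. These 49 are 12.2% of the higher genes at 20 °C that were tested under heat. C38D9.2 was among them, with a log2FC of 6.93 at 20 °C (268 CPM in met-2Δ, against 2.18 CPM in the catalytic mutant), as were C55C3.3 at 5.58 and set-11, which averaged 1.04 CPM in met-2Δ and 0.0621 CPM in the catalytic mutant. Also among the 49, and named after their values were seen, were F15D4.5, with 50.6, 53.8 and 53.0 CPM in met-2Δ and 8.11, 8.36 and 7.22 CPM in WT under heat (log2FC 2.73 ± 0.083, FDR 5.76e-10; 1.27 at 20 °C), and the Smad gene sma-4 at 1.84 ± 0.10 under heat and 1.39 at 20 °C. nhr-247 was not, whose 20 °C means were 0.581 CPM for met-2Δ and 0.598 CPM for met-2-CD.

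For the lower genes the overlap was of another kind. Of 990, 518 were tested in both, 26 were lower in both (5.02%) and 63 were higher at 20 °C (12.2%). The 26 are 28.3% of the lower genes at 20 °C that were tested under heat, and the 63 are 15.8% of the higher ones. The 26 comprised the 16 genes of the chromosome II stretch and 10 others, among them met-2, sel-2 and shc-1, with log2FC values at 20 °C of −3.11, −2.64 and −3.11. acdh-1, an acyl-CoA dehydrogenase, was another, with 1.13, 1.17 and 1.45 CPM in met-2Δ and 6.69, 4.61 and 5.76 CPM in WT under heat (log2FC −2.19 ± 0.21, FDR 1.06e-05). Across the 13128 genes tested in both, the log2FC values had a Pearson's r of 0.01 and a Spearman's rho of 0.068, a description over genes, which are not independent.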

How the data were processed

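Total RNA of early embryos was sequenced in 15 libraries, of which 6 are compared. The deposited values are raw counts per gene: the authors trimmed adapters with Trimmomatic 0.39, aligned reads to ce10 with hisat2 through QuasR 1.22.0, used unique alignments and counted same-strand reads over WS220 exons. No replicates were pooled. Symbols (94.1% of 20392 genes), exon lengths and gene order came from WBcel235 by identifier (97.4% positioned); as the builds differ, no coordinates are printed.

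The 6 libraries were TMM-scaled, filtered with filterByExpr and tested with edgeR 4.0.16 (R 4.3.3; glmQLFit, glmQLFTest) on the 2 group means. FDR is Benjamini-Hochberg adjusted over all 14791 genes. A gene was called at FDR below 0.01 and fold above 2, the thresholds of the study's comparison of mutants at 20 °C (its comparison of heated with unheated embryos used a fold above 4); "at the FDR alone" drops the fold. CPM values use TMM-scaled totals. Errors of log2FC are SE from the F statistic. The 20 °C comparison was fitted separately on its own 6 libraries. On simulated data for the heat comparison, 195 of 200 genes changed 4-fold were recovered (97.5%) and 0 unchanged genes called, among 14791. The simulated counts took their spread from the fit itself. Recovery of changes smaller than 4-fold, and false calls in the real data, were not tested. Replicate pairs differed beyond sampling noise (chi-square per degree of freedom 6.63 to 12, genes of at least 20 counts). Floors cover counting error only.

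Genes named are the 10 highest and 10 lowest log2FC among called, non-overlapping genes with 5 CPM or more in the higher group, the 5 most abundant called in each direction, listed genes, members of runs of at least 5, and up to 3 called genes per family. Members and lists were chosen with earlier results of these data known. The alternatives were other scalings, filters, thresholds and models, DESeq2 1.42.0, thinning, a block by letter, and leaving out each library.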

Additional observations from a re-analysis of the deposited data

How the results depend on the processing

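The counts of higher and lower genes were 312 and 990. They were 237 and 1328 with library totals, which moved the median log2FC of all genes to −0.134 from −0.03 (listed medians move with it), 329 and 917 with DESeq2 size factors, 292 and 733 with the DESeq2 Wald test, 249 and 842 with 12 libraries in the model, 884 lower genes with all 15, and 268 and 855 after thinning to the smallest library. With no filter they were 318 and 1040, and with at least 1 CPM in 3 libraries 240 and 818. An FDR below 0.05 gave 341 and 1253, and a fold above 4 gave 63 and 139. Leaving out each library gave 238 to 324 higher and 583 to 1310 lower genes, with 583 without WT library a and 638 without met-2Δ library c. A replicate block by column letter gave 325 and 1107. With that block, 0 of the named or listed genes past the FDR were lost and 27 that had not passed were gained. The columns carry letters, not the labels' replicate numbers, so the letters were not taken as pairs in the main test. Deviations of same-letter libraries correlated at 0.19, 0.239 and 0.028, and those of different-letter libraries at −0.318 to 0.194. These values do not settle whether the letters mark pairs. No direction of a named or listed gene that passed reversed under any alternative run. Levels under the 3-count floor limit the folds of the weakest genes.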
